A study of Homo sapiens with 4 samples.

Results

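Transcripts of the orphan and adhesion G protein-coupled receptors were measured in LM2 cells after silencing of hnRNPM, a splicing regulator that binds RNA, and in control cells. LM2 is a clonal line, selected for metastasis to lung, that descends from the human breast cancer line MDA-MB-231. The series holds 2 libraries of hnRNPM knockdown cells and 2 of control cells of the same line, all collected 48 h after plating. The labels call the silencing agent an shRNA in one place and an siRNA in another, and no hairpin or oligo sequence was used here. The labels do not tell whether replicates are separate cultures, so the spread behind each p-value could be technical only.

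The members were chosen by gene symbol alone: protein-coding genes named GPR with a number, or ADGR, GPRC5 or LGR with their family letter or number. No measured value entered that rule, although the family was proposed with earlier results of these data in view, and nothing is read from the family's counts as a whole. The rule found 96 genes among 36525 rows of the table. A further 17 rows with such names were pseudogenes, antisense RNAs or other non-coding genes, and 17 protein-coding symbols of the family (among them ADGRL4, GPR6 and GPR179) were not analysed here.

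G protein-coupled receptors cross the membrane in a bundle of helices and, once activated from outside, switch on heterotrimeric G proteins that raise or lower second messengers such as cAMP. Adhesion receptors (ADGR) carry long extracellular parts that bind matrix or neighbouring cells and many are cut close to the membrane by their own GAIN domain. Many GPR receptors are orphans, with no agreed ligand. The GPRC5 receptors are relatives of the class C family with short extracellular parts, the LGR receptors bind R-spondins and strengthen Wnt signalling, and a few genes with a GPR name code for multi-span proteins of the Golgi or lysosome rather than surface receptors.

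Levels are the authors' RPKM values, which are read numbers scaled to transcript length and to sequencing depth. One read was worth the same RPKM in both libraries of a group, so depth differences within a group were not removed. Tests used these values as deposited unless median-ratio scaling is named. The median SE over all tested genes was 0.175 as deposited and 0.0543 after that scaling. Size factors from median-ratio scaling were 0.9305 and 1.03 for the knockdown and 0.9545 and 1.099 for the control libraries. Estimated reads were 16.5 M and 18.3 M in the knockdown and 23.0 M and 26.6 M in the control libraries (M, megareads). HNRNPM itself was at 11.5 and 12.95 RPKM in the knockdown libraries, against 88.6 and 102 RPKM in the control libraries, a 7.80-fold lower level (log2 fold change −2.91 ± 0.17, SE; limma, adjusted p = 1.48e-59). Of the marker genes of other cell types, the leukocyte genes PTPRC, CD3E and LYZ were at or under 0.0191 RPKM in every library. CD68, a lysosomal protein that macrophages hold in large amounts, was at 7.69 and 8.75 RPKM in the knockdown libraries, against 26.05 and 29.05 RPKM in the control libraries; the summed leukocyte list ranged from 7.72 to 8.79 RPKM and from 26.06 to 29.1 RPKM in these groups. Of the endothelial list 4 of 5 genes were in the table, none of them at 0 in all libraries, with sums of 0.271 and 0.33 RPKM after knockdown and 0.436 and 0.44 RPKM in controls. Of the neuronal and glial list 4 of 5 genes were in the table; RBFOX3 was listed at 0 in both knockdown libraries, and the sums were 2.33 and 2.43 RPKM after knockdown and 5.49 and 6.46 RPKM in controls, mostly MBP. Of 5 mesenchymal markers, all at 47.4 RPKM or more in every library, SPARC and THBS1 rose (2.55-fold and 2.78-fold; limma adjusted p = 5.72e-14 and 1.02e-16). VIM, FN1 and CD44 did not pass as deposited. After median-ratio scaling all 5 passed, 3 higher and 2 lower, where 29.9% of all tested genes rose and 31.0% fell. Of 5 epithelial markers, KRT8 and KRT18 rose (1.84-fold and 1.85-fold; limma adjusted p = 2.97e-05 and 1.54e-05) and EPCAM and KRT19 did not pass. CDH1, below the filter, was at 0.717 and 0.991 RPKM after knockdown, against 0.0774 and 0.0629 RPKM in controls. The part of all these marker lists in the receptor results was not tested. In bulk RNA, fewer cells with a transcript and less of it per cell cannot be told apart.

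Most of the family lay below the level at which genes were tested. Of 96 members, 25 had a mean RPKM of at least 1 over the 4 libraries and could be tested, 32 lay between 0.1 and 1, 31 were above 0 but under 0.1, and 8 were listed at 0 throughout. The tested members made up 26% of the family, while 57.2% of all protein-coding genes of the table had a mean of at least 1 RPKM. Those listed at 0 included GPR12, GPR26, GPR50, GPR141, GPR152, ADGRE1 and ADGRG7. No near silent member exceeded 0.123 RPKM in any library. Expressed and silent members also differed in gene structure, given here as a description: the median gene span was 54.9 kb for the tested members and 21.2 kb for the 39 near silent or listed at 0, and 2 of 25 against 13 of 39 had only 1 or 2 exon blocks in GENCODE 29.

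**Figure D1:**
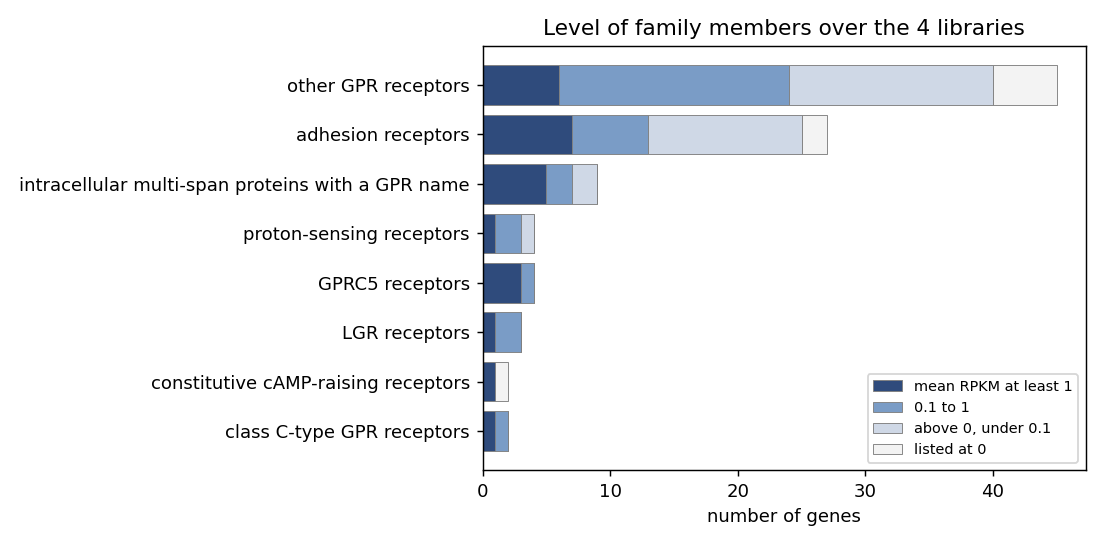
Number of family members (x axis) in each subfamily (y axis) by their mean RPKM over the 4 libraries, from dark (at least 1) to white (listed at 0). The adhesion receptors have 7 of 27 members at 1 RPKM or more, and the GPRC5 receptors 3 of 4.

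Among the 25 tested members, GPRC5A was the most abundant and rose 2.43-fold, GPRC5B rose 6.795-fold, and the ciliary receptor GPR161 fell 3.99-fold. In the fit over all 13627 tested genes (limma on log2 of RPKM plus 0.5, Benjamini-Hochberg adjusted p under 0.05), 7 members rose, 10 fell and 8 did not pass, where 14.7% of all tested genes rose and 21.8% fell. The members' median log2 fold change was 0.03 and that of all tested genes −0.07. In this fit limma gave the spread pooled over genes of like level full weight. Each SE and p-value from it therefore does not measure that gene's own spread. After median-ratio scaling, where the pooled spread had less weight, limma adjusted p was 0.000556 for GPRC5B and 0.0011 for GPR161. GPR137B and GPR161, for example, passed the mean filter only through the control libraries and GPRC5B only through the knockdown libraries, so the count of calls among tested members describes these genes and is not a rate for the family. With a library left out, the median log2 fold change of the members moved together with that of all tested genes. It was 0.08 (all genes −0.01) without knockdown replicate 1 and −0.04 (all genes −0.14) without knockdown replicate 2. Without control replicate 1 it was −0.01 (all genes −0.15), and without control replicate 2 it was 0.14 (all genes 0.03). After median-ratio scaling all 17 calls remained and 11 members rose and 10 fell (29.9% and 31.0% of all genes tested in that fit).

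**Figure D2:**
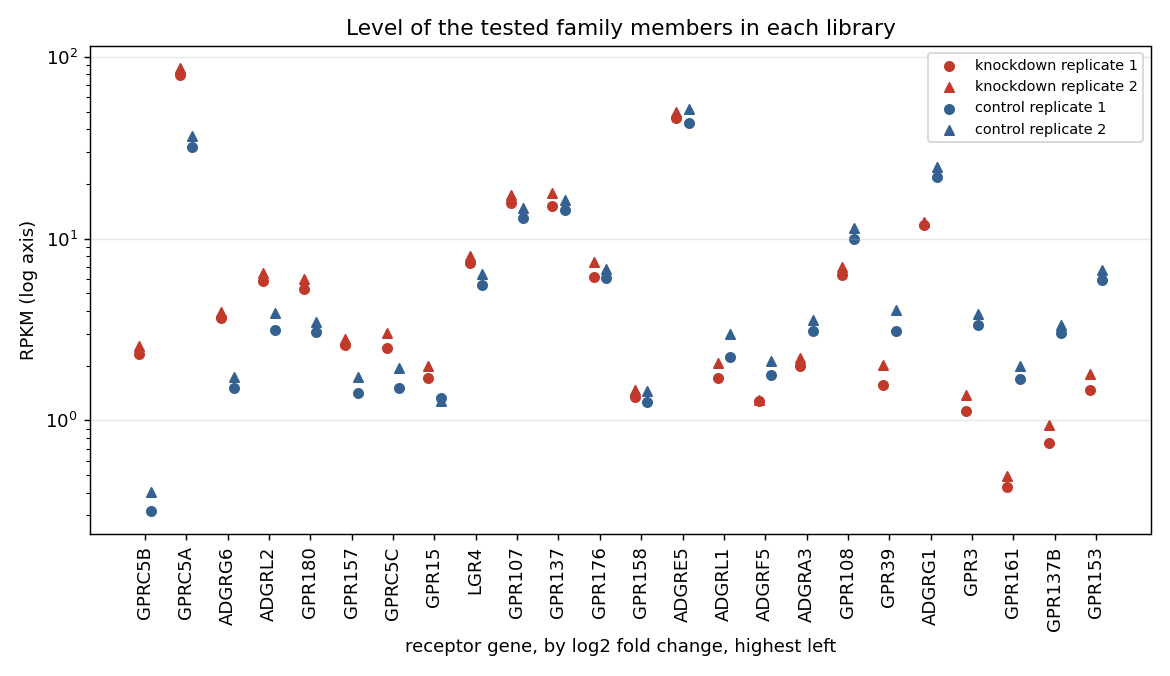
RPKM on a log axis (y) of 24 of the 25 tested members (x, ordered by log2 fold change) in each knockdown library (red, left) and control library (blue, right); circles are replicate 1 and triangles replicate 2. GPRC5A and ADGRE5 are the 2 genes above 30 RPKM in all libraries, and GPRC5B and GPR161 have groups that lie far apart.

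Promoter sequence is shown for 4 members that changed or are paralogs of each other: GPRC5B had the largest rise of a tested member and GPRC5D is its paralog with the lowest level, GPR153 fell 3.85-fold, and GPR3 is the only member of 68 with a RefSeq promoter window whose 250 bases before the start hold the cAMP response element TGACGTCA. Each line gives the 150 bases that end at the base before the annotated start (RefSeq, GRCh38.p14), 5′ to 3′ on the gene's strand. Capitals mark matches on either strand to the cAMP response element, to the AP-1 site TGANTCA, to the GC box GGGCGG or to the TATA box TATAAA; matches of the GC box may overlap each other.
GPRC5B, chr16:19885635-19885784, minus strand: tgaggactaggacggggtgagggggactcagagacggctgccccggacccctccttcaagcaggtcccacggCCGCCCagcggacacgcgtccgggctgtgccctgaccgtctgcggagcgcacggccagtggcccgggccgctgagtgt
GPRC5D, chr12:12952171-12952320, minus strand: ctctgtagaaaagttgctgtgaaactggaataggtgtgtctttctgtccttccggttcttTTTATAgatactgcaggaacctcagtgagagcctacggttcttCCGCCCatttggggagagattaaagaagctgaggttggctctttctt
GPR153, chr1:6261099-6261248, minus strand: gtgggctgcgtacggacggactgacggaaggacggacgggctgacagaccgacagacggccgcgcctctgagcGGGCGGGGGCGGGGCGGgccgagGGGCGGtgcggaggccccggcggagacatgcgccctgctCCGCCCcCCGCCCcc
GPR3, chr1:27392472-27392621, plus strand: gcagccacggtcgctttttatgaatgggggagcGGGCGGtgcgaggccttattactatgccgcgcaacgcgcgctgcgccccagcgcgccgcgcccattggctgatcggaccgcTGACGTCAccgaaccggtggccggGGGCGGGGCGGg

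In GPR3 the cAMP response element began 36 bases before the start. Over all 27305 windows of the table, 1.77% held this element, 6.60% the AP-1 site, 42.3% the GC box and 11.1% the TATA box. Of the 68 members with a window, 1 held the response element, 5 the AP-1 site, 36 the GC box and 7 the TATA box. GPR153 had 7 GC box matches in its 250 bases, at 80% G and C, whereas the GPRC5D window had 44.4% G and C and 2 TATA box matches. A match describes letters only, and no value in the series tests binding there.

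The GPRC5 receptors were higher after knockdown in all 4 members, 3 of which were tested and rose, where 14.7% of all tested genes rose. No test over these genes as a set was run. GPRC5A (ENSG00000013588), first found as a gene induced by retinoic acid, had 79.9 and 86.7 RPKM in the knockdown libraries and 31.8 and 36.7 RPKM in the control libraries. Both knockdown libraries lay above both control libraries, with a log2 fold change of 1.27 ± 0.172 (SE; limma, adjusted p = 4.6e-12, and 0.00022 after median-ratio scaling). GPRC5B (ENSG00000167191), an orphan receptor of the plasma membrane, was at 2.32 and 2.56 RPKM after knockdown and at 0.316 and 0.403 RPKM in controls. Its groups were far apart and did not overlap (log2 fold change 1.78 ± 0.203, SE; limma, adjusted p = 1.23e-16). It shares 26.7% of its exon length with IQCK on the opposite strand, which was at 1.28 and 1.65 RPKM after knockdown and 0.881 and 0.946 RPKM in controls (1.60-fold). Strand use in the counting is not stated, so reads of these overlapping stretches cannot be told apart.

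GPRC5C, the third tested paralog, had 2.50 and 3.02 RPKM in the knockdown libraries and 1.51 and 1.95 RPKM in the control libraries, a 1.60-fold rise (log2 fold change 0.55, limma adjusted p = 0.0106). That call was lost in 3 of the 4 fits that left out a library (adjusted p from 0.0381 to 0.271 over all 4), the exception being the fit without control replicate 2. GPRC5D, an antigen of plasma cells used as a target in myeloma, lay below the filter with 0.63 and 0.78 RPKM after knockdown against 0.297 and 0.404 RPKM in controls, which is 2.01-fold. By level per length the order in knockdown libraries was GPRC5A (mean 83.3 RPKM), GPRC5C (2.76), GPRC5B (2.44) and GPRC5D (0.705), where the values of GPRC5C and GPRC5B overlap. In control libraries it was GPRC5A (34.2), GPRC5C (1.73), and then GPRC5B (0.359) and GPRC5D (0.35), whose values overlap.

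Among the 7 adhesion receptors with a test, 2 went up, 3 went down and 2 were not called, where 14.7% of all tested genes rose and 21.8% fell. ADGRG6 (ENSG00000112414; GPR126), a receptor for type IV collagen that raises cAMP and that Schwann cells need for myelination, was at 3.66 and 3.94 RPKM after knockdown and at 1.502 and 1.74 RPKM in controls. It rose 2.35-fold with groups that did not overlap (log2 fold change 1.02 ± 0.182, SE; limma, adjusted p = 2.81e-07). ADGRL2, a latrophilin that binds teneurins and FLRT proteins, had 5.88 and 6.48 RPKM in knockdown and 3.13 and 3.89 RPKM in control libraries and rose 1.76-fold (log2 fold change 0.74, limma adjusted p = 0.000169). Its call was lost without knockdown replicate 2 or control replicate 1 (adjusted p = 0.0738 and 0.0559). Its paralog ADGRL1 was at 1.70 and 2.08 RPKM after knockdown and 2.22 and 2.998 RPKM in controls, which do not overlap, without a call (log2 fold change −0.37, limma adjusted p = 0.103).

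ADGRG1 (ENSG00000205336; GPR56), which binds collagen III and transglutaminase 2, went the other way from ADGRG6. It had 11.9 and 12.4 RPKM in the knockdown libraries and 21.8 and 24.8 RPKM in the control libraries, a 1.92-fold lower level (log2 fold change −0.91 ± 0.175, SE; limma, adjusted p = 2.04e-06). ADGRA3 (GPR125) fell 1.60-fold, with 1.98 and 2.19 RPKM after knockdown and 3.09 and 3.57 RPKM in controls (log2 fold change −0.56, limma adjusted p = 0.0073). ADGRF5, which restrains surfactant release in lung alveoli, was at 1.28 and 1.30 RPKM after knockdown and 1.78 and 2.13 RPKM in controls, just under the threshold (log2 fold change −0.46, limma adjusted p = 0.0491). ADGRF5 failed in each of the 4 fits that left out a library (adjusted p from 0.0631 to 0.249), and ADGRA3 failed in 3 of them (from 0.041 to 0.208 over all 4), passing without control replicate 1.

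ADGRE5 (CD97), a receptor for the complement regulator CD55, was the second most abundant member and showed the smallest difference of the tested adhesion receptors. Its values were 45.98 and 49.8 RPKM after knockdown and 43.5 and 51.6 RPKM in controls, with overlapping groups and a log2 fold change of 0.01 ± 0.173 (SE; limma, adjusted p = 0.959). The leukocyte adhesion receptors ADGRE2 and ADGRE3 were below 0.02 RPKM in all libraries and ADGRE1 was listed at 0. The vascular receptor ADGRA2 was at 0.941 and 1.06 RPKM after knockdown and 0.821 and 1.01 RPKM in controls, which overlap.

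**Figure D3:**
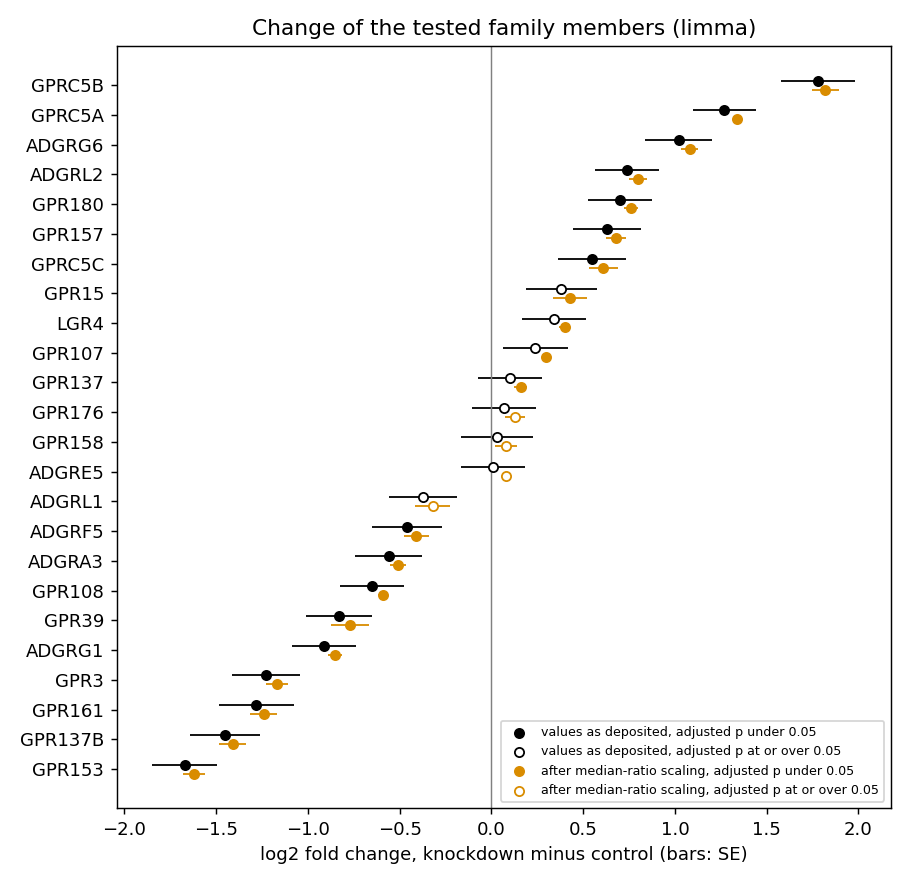
log2 fold change, knockdown minus control (x axis; bars are SE), of 24 of the 25 tested members (y axis) in the values as deposited (black) and after median-ratio scaling (orange); filled points have an adjusted p under 0.05. Filled black points number 7 on the right and 9 on the left, and every filled black point is also filled in orange.

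Among the receptors that respond to extracellular protons, GPR132, GPR65 and GPR4 were all below the filter. GPR132 had 0.0562 and 0.0723 RPKM after knockdown and 0.154 and 0.279 RPKM in controls, or 7 and 9 against 27 and 49 estimated reads, and was 3.36-fold lower. GPR65 (TDAG8), which raises cAMP in acid, had 0.227 and 0.472 RPKM in the knockdown libraries, against 0.0134 and 0.12 RPKM in the control libraries. Its estimated reads were 12 and 25 against 1 and 9, which may be too low, since its exon length would give more. Both knockdown libraries lay above both control libraries, but the log2 ratio of means of 2.39 ranged from 1.54 without control replicate 1 to 4.71 without control replicate 2. GPR4, found on endothelium, was under 0.03 RPKM in every library.

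GPR3 (ENSG00000181773) activates Gs without a ligand and keeps cAMP high in mouse oocytes. It was at 1.13 and 1.37 RPKM after knockdown and 3.33 and 3.86 RPKM in controls, a 2.87-fold lower level with a log2 fold change of −1.23 ± 0.185 (SE; limma, adjusted p = 7.98e-10). Its relative GPR12 was listed at 0. GPR161 (ENSG00000143147), a receptor of the primary cilium that holds back Hedgehog signalling through cAMP, had 0.428 and 0.497 RPKM in knockdown and 1.69 and 1.99 RPKM in control libraries. It fell 3.99-fold (log2 fold change −1.28 ± 0.205, SE; limma, adjusted p = 7.45e-09) and dropped under the filter in both fits without a control library.

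GPR39, a zinc-sensing receptor, fell 1.99-fold to 1.56 and 2.03 RPKM after knockdown, against 3.10 and 4.06 RPKM in controls (log2 fold change −0.83, limma adjusted p = 4.45e-05). It shares 34.8% of its exon length with LYPD1 on the opposite strand, which also fell, with 1.56 and 1.97 RPKM after knockdown and 3.42 and 4.43 RPKM in controls, and the reads of the pair cannot be told apart without strand. Without knockdown replicate 1 or control replicate 2 the GPR39 call was lost (adjusted p = 0.0644 and 0.0534). The orphan GPR153 (ENSG00000158292) had 1.48 and 1.81 RPKM after knockdown, against 5.94 and 6.73 RPKM in controls. Its 3.85-fold fall had a log2 fold change of −1.67 ± 0.178 (SE, limma adjusted p = 4.52e-19, and 0.000466 after median-ratio scaling). Both of its knockdown values lay far below both control values.

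Other surface receptors changed little or rose. GPR157 rose 1.72-fold, with 2.61 and 2.79 RPKM after knockdown and 1.42 and 1.72 RPKM in controls (log2 fold change 0.63, limma adjusted p = 0.00324), and passed in 1 of the 4 fits without a library, the one without control replicate 2. GPR176, an orphan receptor of the clock centre in the mouse brain, was at 6.18 and 7.48 RPKM after knockdown and 6.07 and 6.84 RPKM in controls, which overlap (adjusted p = 0.78, limma). GPR15, a homing receptor of T cells, had 1.72 and 1.99 RPKM in knockdown and 1.33 and 1.27 RPKM in control libraries, a difference that did not pass as deposited (limma adjusted p = 0.108, and 0.0242 after scaling). GPR158, a class C-type receptor that binds the RGS7 and Gβ5 complex, was at 1.34 and 1.46 RPKM after knockdown and 1.25 and 1.46 RPKM in controls, without a call (limma adjusted p = 0.912).

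The multi-span proteins of inner membranes that carry a GPR name gave 1 rise and 2 falls among 5 tested. The shares over all tested genes were 14.7% and 21.8%. GPR137B (ENSG00000077585), a lysosomal protein that regulates mTORC1, fell 3.76-fold, with 0.755 and 0.947 RPKM after knockdown, against 3.03 and 3.36 RPKM in controls (log2 fold change −1.45 ± 0.19, SE; limma, adjusted p = 7.96e-13). Its paralog GPR137 was at 15.2 and 17.7 RPKM in knockdown and 14.3 and 16.4 RPKM in control libraries, which overlap (log2 fold change 0.10, limma adjusted p = 0.71, and 0.0253 after median-ratio scaling). GPR137 shares 10% of its exon length with BAD on the opposite strand, and reads of that stretch cannot be told apart without strand. BAD was at 28.5 and 31.5 RPKM after knockdown and 29.1 and 34.6 RPKM in controls. GPR137C, the third GPR137 paralog, was below the filter, with 0.365 and 0.419 RPKM after knockdown and 0.594 and 0.636 RPKM in controls. A test of the difference between the paralogs was not run.

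GPR180 rose 1.72-fold to 5.26 and 5.99 RPKM after knockdown, against 3.05 and 3.49 RPKM in controls (log2 fold change 0.70, limma adjusted p = 0.000428), and its call was lost without knockdown replicate 2 or control replicate 1. The Golgi proteins GPR107 and GPR108 stood apart: GPR108 had 6.31 and 6.95 RPKM after knockdown and 9.99 and 11.4 RPKM in controls and fell 1.61-fold (log2 fold change −0.65, limma adjusted p = 0.00111). Its call held without control replicate 1 and was lost in the other 3 such fits (adjusted p from 0.0356 to 0.19). GPR107 was at 15.7 and 17.3 RPKM after knockdown and 13.0 and 14.8 RPKM in controls, and did not pass as deposited (limma adjusted p = 0.295, and 0.00165 after median-ratio scaling). GPR89A and GPR89B, near-identical copies of the Golgi pH regulator, were under 0.02 RPKM in all libraries. How reads that match both copies were counted is not stated, so their level is uncertain, as is that of GPR42, a near copy of FFAR3.

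**Figure D4:**
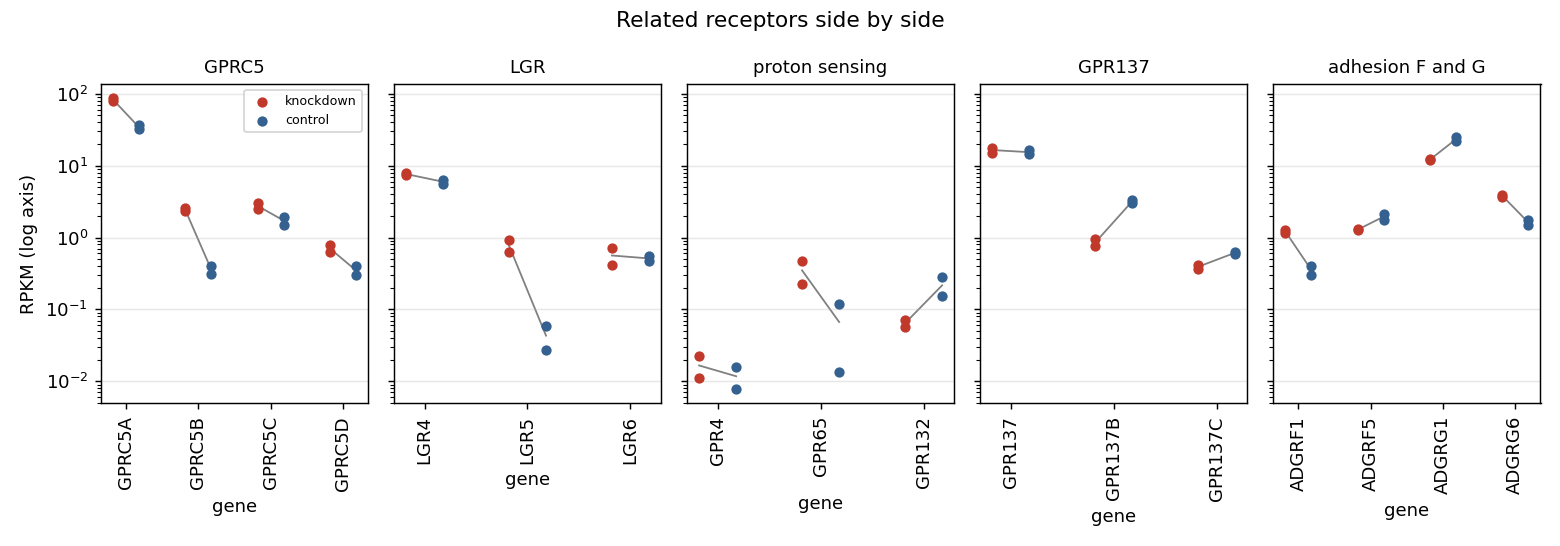
RPKM on a log axis (y) of related receptors (x) in the 2 knockdown libraries (red, left of each pair) and the 2 control libraries (blue, right), with grey lines joining the group means. The 4 GPRC5 genes all slope down from knockdown to control, while the 3 proton-sensing genes shown and the GPR137 genes slope in both directions.

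Among the LGR receptors, LGR5 stood out below the filter. LGR5 (ENSG00000139292), a target of Wnt signalling and a marker of intestinal stem cells, had 0.623 and 0.931 RPKM in the knockdown libraries, or 97 and 145 estimated reads, against 0.0273 and 0.0591 RPKM in the control libraries, or 6 and 13 reads. The ratio of means was 17.99, and its log2 value of 4.17 ranged from 3.72 to 4.83 when each library was left out. LGR4 was at 7.31 and 7.99 RPKM after knockdown and 5.56 and 6.36 RPKM in controls, which do not overlap, without a call (log2 fold change 0.34, limma adjusted p = 0.122; 0.00168 after median-ratio scaling). LGR6 overlapped, with 0.419 and 0.705 RPKM after knockdown and 0.4697 and 0.554 RPKM in controls. An unnamed gene on the opposite strand, ENSG00000257761, shares 3.96% of LGR5's exon length and was at 0.9597 and 0.6398 RPKM after knockdown and 0.136 and 0.0453 RPKM in controls.

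Of the 32 members between 0.1 and 1 RPKM, 26 had groups that did not overlap, 11 higher and 15 lower after knockdown. The share of all genes in that range without overlap was not computed, so nothing is read from this count. Among these 26, 6 were higher and 6 lower by 2-fold or more. Of all 7417 genes in that range, 12.4% were higher and 17.5% lower by 2-fold or more without overlap. Besides LGR5, GPRC5D and GPR65, the higher ones included ADGRF1 and GPR55. ADGRF1 (GPR110), an adhesion receptor, had 1.16 and 1.26 RPKM after knockdown and 0.306 and 0.3998 RPKM in controls, 3.44-fold. GPR55, a receptor for lysophosphatidylinositol, had 0.408 and 0.474 RPKM in knockdown and 0.0867 and 0.145 RPKM in control libraries, 3.81-fold, or 50 and 58 against 15 and 25 reads. However, GPR55 shares 14.5% of its exon length with the unnamed gene ENSG00000230385 on the opposite strand. That gene was at 0.674 and 0.562 RPKM after knockdown and 0.0398 and 0.119 RPKM in controls. Reads of the shared stretch cannot be told apart without strand.

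The lower ones included ADGRB2, GPR132, GPR162, GPR78 and ADGRD1. ADGRB2 (BAI2), an adhesion receptor best known from brain, had 8 and 10 reads in the knockdown libraries, against 65 and 75 in the control libraries, or 0.0348 and 0.0434 against 0.1999 and 0.231 RPKM, 5.51-fold lower. GPR162 and GPR78, both orphans, were 2.39-fold and 2.35-fold lower, but GPR78 shares 24.1% of its exon length with CPZ on the same strand, which was at 0.218 and 0.176 RPKM after knockdown and 0.438 and 0.502 RPKM in controls. ADGRD1 (GPR133) was at 0.167 and 0.165 RPKM after knockdown and 0.307 and 0.394 RPKM in controls. ADGRD1-AS1, which shares 0.741% of ADGRD1's exon length on the opposite strand, was at 2.38 and 2.69 RPKM after knockdown and 7.14 and 9.01 RPKM in controls.

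With the filter lowered to a mean of 0.1 RPKM, limma called ADGRF1, LGR5 and GPR55 higher (adjusted p = 0.0194, 0.0201 and 0.0335) and ADGRB2 lower (adjusted p = 0.0488) among the 32, where 6.66% of all genes in that fit rose and 10.0% fell. Median-ratio scaling with that filter, an alternative chosen after seeing the data, called these 4 and, among others, GPRC5D and GPR18 as higher (adjusted p = 0.0164 and 0.0354) and GPR160, ADGRD1 and GPR78 as lower (adjusted p = 0.0265, 0.0457 and 0.0488), where 21.8% rose and 23.6% fell. In that limma fit all 4 GPRC5 genes were called higher.

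**Figure D5:**
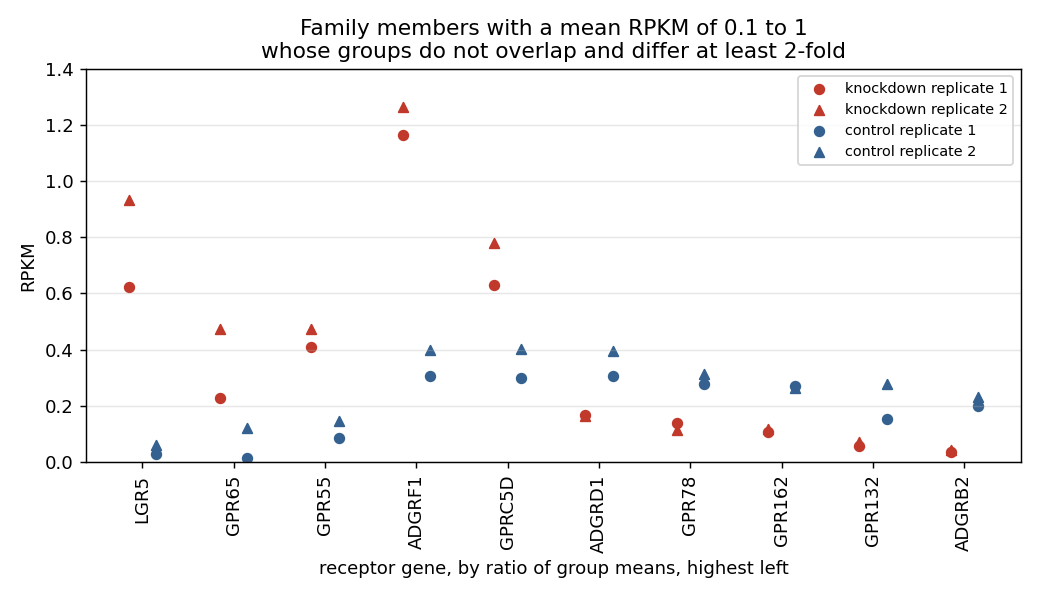
RPKM (y axis) of 10 of the 12 members with a mean of 0.1 to 1 RPKM whose groups did not overlap and differed at least 2-fold (x axis, by ratio), in the knockdown libraries (red, left) and control libraries (blue, right); circles are replicate 1 and triangles replicate 2. LGR5 and ADGRF1 reach the highest knockdown values, and ADGRB2 lies under 0.05 RPKM in both knockdown libraries.

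A further 20 low members differed less than 2-fold or overlapped. They were ADGRA2, GPR17, GPR160, GPR37, GPR173, GPR21, LGR6, GPR85, GPR183, GPR75, GPR137C, GPR135, GPR19, GPR146, GPR18, GPR63, ADGRF3, ADGRV1, GPR155 and GPR83. Those given here or above with values (GPR37, GPR183, GPR21, GPR137C, LGR6 and ADGRA2) were chosen after their values were seen. GPR37, a receptor linked to prosaposin and to Parkinson's disease, was at 0.815 and 0.759 RPKM after knockdown and 0.522 and 0.569 RPKM in controls. Its relative GPR37L1 was near silent, with 0.107 and 0.0401 RPKM after knockdown and 0 and 0.00947 RPKM in controls. GPR183, which guides lymphocytes along oxysterol gradients, was at 0.516 and 0.734 RPKM in knockdown and 0.393 and 0.435 RPKM in control libraries. GPR21 lies in RABGAP1, which covers 97.4% of its exon length on the same strand and was at 7.62 and 7.65 RPKM after knockdown and 5.76 and 6.795 RPKM in controls, so the 16 to 26 reads of GPR21 in each library cannot be told apart from reads of that gene.

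The near silent members not yet named were GPR20, GPR22, GPR34, GPR35, GPR45, GPR52, GPR61, GPR62, GPR82, GPR84, GPR143, GPR151, GPR171, GPR182, ADGRA1, ADGRB1, ADGRB3, ADGRF2, ADGRF4, ADGRG2, ADGRG3, ADGRG4, ADGRG5 and ADGRL3. Their levels give no comparison at this depth.

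The genes that act with these receptors were taken from lists chosen with earlier results of the series known. Each count is to be read against the 14.7% of all tested genes that rose and the 21.8% that fell. RGS7, for example, passed the mean filter only through the knockdown libraries, and RGS20, GNAO1 and GNB3 only through the control libraries. The counts therefore describe the listed genes and are not rates. Of 16 listed G protein alpha subunits, 14 were matched by symbol. GNAS and GNAZ were not matched, so they were not tested. Among the 9 tested G protein alpha subunits, 2 were called higher, 2 lower and 5 neither. GNA15, the promiscuous alpha subunit of blood cells, fell 1.93-fold to 8.335 and 9.505 RPKM after knockdown, against 15.9 and 18.6 RPKM in controls (limma adjusted p = 2.16e-06), and GNAO1 fell 1.71-fold. GNAI1, which lowers cAMP, and GNA13, which remodels the actin skeleton, rose 1.58-fold and 1.4-fold. Among 9 beta and gamma subunits, 2 were called higher, 3 lower and 4 neither. GNG11 rose 1.62-fold and GNG10 1.47-fold, while GNB5 fell 1.80-fold and GNB3 1.77-fold.

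RGS7, a partner of GPR158 and of Gβ5 that speeds G protein shut-off, was at 2.62 and 2.87 RPKM after knockdown and 0.265 and 0.215 RPKM in controls, 11.4-fold higher (limma log2 fold change 2.13, adjusted p = 1.62e-23). RGS10 fell 1.89-fold to 28.6 and 32.5 RPKM, against 52.97 and 62.1 RPKM in controls, and RGS20 fell 2.07-fold, so that 1 of 6 tested RGS genes was called higher, 2 lower and 3 neither. RGS3 did not pass (0.787-fold). Of 5 tested receptor kinases and arrestins, 0 rose and 2 fell: ARRB2, which uncouples and internalizes receptors, was 2.16-fold lower (3.97 and 4.35 RPKM after knockdown, 7.95 and 10.0 RPKM in controls; limma adjusted p = 9.42e-08), and the receptor kinase GRK5 1.99-fold lower. GRK6 and ARRB1 did not pass. Of 4 adenylyl cyclases tested, the enzymes that make cAMP, 0 rose and 3 fell: ADCY7 1.75-fold, ADCY6 1.64-fold and ADCY3 1.5-fold (limma adjusted p = 0.00474, 0.00456 and 0.00684). ADCY9 was 1.23-fold higher without a call (adjusted p = 0.268, limma), and passed after median-ratio scaling (adjusted p = 0.00747).

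In the R-spondin pathway, 2 of 4 tested genes rose and 0 fell. The Wnt co-receptor LRP6 was at 8.47 and 9.15 RPKM after knockdown and 4.34 and 5.43 RPKM in controls (1.80-fold, limma adjusted p = 4.51e-05), and AXIN2, a target of Wnt signalling, at 1.66 and 1.85 against 1.144 and 1.105 RPKM (1.56-fold, adjusted p = 0.0446). FZD7 and LRP5 did not pass. Values of RNF43 and the R-spondins are added here after they were seen: RNF43, the ubiquitin ligase that R-spondin and LGR proteins hold in check, was at 0.421 and 0.453 RPKM after knockdown and 0.0452 and 0.0904 RPKM in controls, and RSPO1, RSPO2 and RSPO3 were under 0.06 RPKM in every library.

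Ligands and partners of the adhesion and orphan receptors moved in both directions, with 6 of 12 tested genes higher, 4 lower and 2 not called. THBS1, a matrix protein that binds ADGRB1, rose 2.78-fold to 228 and 253 RPKM after knockdown, against 80.3 and 92.4 RPKM in controls, while ADGRB1 itself was listed at 0 in both knockdown libraries and 2 and 4 estimated reads were found for it in controls. TENM3, a teneurin, rose 2.17-fold, and C1QL1, a ligand of ADGRB3, and the growth factor PTN fell 4.29-fold and 3.42-fold. Further ligands were chosen after their values were seen because their receptors are named above. The type IV collagen genes COL4A1 and COL4A2 rose 1.79-fold and 1.55-fold beside ADGRG6, CD55 rose 1.37-fold beside ADGRE5, which did not pass, and the prosaposin gene PSAP rose 1.45-fold to 229 and 254 RPKM, against 154 and 179 RPKM in controls. FLRT2, a latrophilin ligand, fell 2.09-fold.

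Receptors with known ligands served for comparison. Among 24 with a test, 6 were called higher, 6 lower and 12 neither. Their median log2 fold change was −0.08, against 0.03 for the orphan and adhesion family and −0.07 for all tested genes. CALCR, the calcitonin receptor, was 43.4-fold higher, ADRA1B, an adrenergic receptor, 3.52-fold higher, the Wnt receptor FZD8 4.85-fold lower and VIPR1, a receptor for vasoactive intestinal peptide, 4.26-fold lower after knockdown (limma adjusted p = 3.07e-61, 1.02e-18, 2.57e-21 and 1.27e-27). No difference between these 2 sets was tested.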

How the data were processed

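RNA from 2 hnRNPM knockdown and 2 control libraries of LM2 cells was sequenced. The authors deposited 1 table of RPKM values for 36525 Ensembl genes; the submitters' processing notes name Bowtie 0.12.7 and hg19. How reads were counted, with which strand setting and with what treatment of multi-mapping reads is not given. 0 columns of values were left unused. Symbols came from a current table (32172 IDs) or GENCODE 29 (136 IDs), and 4217 IDs had no name; gene types, exon lengths and overlaps came from GENCODE 29, on GRCh38, so genes of the table get no coordinates.

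log2(RPKM + 0.5) was fitted, for genes averaging at least 1 RPKM over the 4 libraries, with limma 3.58.1 in R 4.3.3 (group alone, trended empirical Bayes, Benjamini-Hochberg adjustment, threshold 0.05), also tested on simulated data. Fold changes on this scale understate low genes; plain ratios are of mean RPKM. Estimated reads are whole numbers read from the steps of the deposited RPKM values. The step was chosen so that a gene's values come out whole, so their being whole is no check on them. Where the step did not match the exon length, as for GPR65, it may hold several reads, and the estimate may be too low. No estimated reads went into a count test. An exact permutation test of 2 against 2 cannot go below a p of 0.333 and was not run.

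Members and lists were chosen with earlier results of these data known. Values are named for HNRNPM, every tested member, every low member with groups apart by 2-fold or more, and the 4 list genes with the smallest p; a few of these genes are counted but not reported here.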

Additional observations from a re-analysis of the deposited data

How the results depend on the processing

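Of the 17 called members, all 17 kept call and direction after median-ratio scaling, with a pseudocount of 1 and with the replicate block; ADGRF5 alone was lost with a pseudocount of 0.1 or without a variance trend. A filter of 0.1 RPKM lost ADGRA3, GPR39, GPRC5C and ADGRF5, and with no filter 3 remained called, among them GPR153 and GPRC5B. With each library left out in turn, 9 of the 17 passed in every fit that tested them, and 8 were lost in at least 1. No called member changed sign under any alternative run. Some members without a call did when a library was left out. With each library left out in turn, the log2 fold change ran from −0.11 to 0.14 for ADGRE5, −0.05 to 0.20 for GPR176, −0.04 to 0.11 for GPR158 and −0.01 to 0.20 for GPR137. It was below 0 without knockdown replicate 2 for all 4, and without control replicate 1 for ADGRE5 (−0.11), GPR176 (−0.01) and GPR158 (−0.04). In these fits the median of all tested genes was also lower, at −0.14 and −0.15, against −0.07 with all libraries.

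The count of members that rose (7) was 11 after median-ratio scaling, 1 without a filter, 1 when a mean RPKM of 5 was required, 16 with median-ratio scaling and a filter of 0.1 together (an alternative added after the data were seen, which tests 57 members in place of 25), and 3 to 7 with each library left out. The count that fell (10) was 2 without a filter, 2 when a mean of 5 RPKM was required, 15 with scaling and the filter of 0.1, and 5 to 8 with each library left out. Of all genes, 2000 rose: 4075 after median-ratio scaling, 262 without a filter, 1047 with a mean of 5 RPKM required, 4578 with scaling and the filter of 0.1, and 693 to 1337 with each library left out. The 2964 that fell became 255, 1321, 4966 under no filter, the filter of 5, and scaling with the filter of 0.1, and 1100 to 1907 with each library left out. Without a filter 31636 genes were tested and HNRNPM itself had an adjusted p of 0.0445 (limma); the filter of 5 left 8 members. In the fits without a library, the lone sample of a group is assumed to vary like the others.

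With the replicate number as a block, 9 members rose and 11 fell, with GPR107, LGR4 and ADGRL1 gained. Of all 13627 genes in that fit, 3109 rose and 4318 fell. The median SE was 0.0648 with the block and 0.175 without it. The within-group differences of same-numbered libraries correlated at 0.0307 over these genes, but a correlation leaves out any shift common to all genes. Both replicate 2 libraries had the larger size factor of their group (1.03 and 1.099, against 0.9305 and 0.9545). Whether same-numbered libraries belong together is therefore not settled. The depth limits members under about 0.1 RPKM, where a library holds few reads.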

Other observations

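Some non-coding genes named after receptors were more abundant than the receptors themselves. ADGRD1-AS1 was at 2.38 and 2.69 RPKM after knockdown and 7.14 and 9.01 RPKM in controls (limma log2 fold change −1.49, adjusted p = 1.15e-15), while ADGRD1 stayed under 0.4 RPKM in every library. GPRC5D-AS1 was at 1.43 and 1.37 RPKM after knockdown and 1.69 and 1.87 RPKM in controls, whereas GPRC5D was higher after knockdown. GPR84-AS1 (ENSG00000258086) was at 7.66 and 7.78 RPKM after knockdown and 7.35 and 8.22 RPKM in controls, which overlap. GPR84 itself did not exceed 0.0117 RPKM in any library.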
